A study of Homo sapiens with 12 samples.

Results

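The FOX, SOX, PAX, GATA and TBX genes encode 5 families of DNA-binding transcription factors that direct embryonic development. They were chosen by symbol among protein-coding genes (FOX with a letter and a number, SOX, PAX or TBX with a number, and GATA1 to GATA6), and 92 of the 20050 protein-coding genes in the RefSeq table met the rule. An annotated transcription start site (TSS) window on the same strand lay within 1 kb of the RefSeq 5′ end for 86 of them, against 16732 protein-coding genes in all. These 86 were 42 FOX, 17 SOX, 9 PAX, 6 GATA and 12 TBX genes. The other 6, FOXD2 and SOX6 among them, had no such window.

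The windows were read in untreated HEK293, a cell line established from human embryonic kidney, after formaldehyde fixation and chromatin immunoprecipitation with BG4, a single-chain antibody that binds G-quadruplexes. There were 3 biological replicates (BioRep1, BioRep2 and BioRep3) of this 1 line, each with 3 technical ChIP libraries. Libraries of the 3 inputs, which skipped the antibody, were left out, and no level is relative to them. Each library gave between 372030 and 846114 reads over 58381 windows of 400 bp, and each biological replicate had 1 peak list, of 7931, 11665 and 13049 peaks. Reads in a window are given as CPM, the count scaled to the total of reads in all windows of the library. The assay reads DNA and not RNA, so the identity of the cells and the activity of the genes were not checked from these data.

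A G-quadruplex forms where guanine-rich DNA folds into stacked planes of 4 guanines, and in chromatin such structures are found mostly in open, guanine-rich promoters. Forkhead (FOX) factors bind DNA through a winged helix, SOX factors through an HMG box, PAX factors through a paired domain, GATA factors through zinc fingers and TBX factors through a T-box. Most members are active only in certain tissues. A smaller number, such as the FOXK factors, FOXO1, FOXO3, SOX4 and SOX12, are active in many adult cell types.

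The promoters below show the sequence at members that differed in BG4 signal. SOX12, GATA6 and FOXP4 had a peak in all 3 lists, called a consensus peak from here on, and a G-quadruplex motif inside the peak region. FOXK2, TBX6 and PAX3 had a consensus peak and no motif in the stretch shown. GATA1 and FOXJ2 had a motif and no peak. Each stretch is the 250 bases before the RefSeq start site, 5′ to 3′ on the strand of the gene (RefSeq, GRCh38.p14). Capitals mark the motif, 4 or more runs of GGG separated by 1 to 7 bases, or the same with CCC when the guanines lie on the other strand. They lie at chr20:325302-325551 (SOX12, plus strand), chr18:22169339-22169588 (GATA6, plus), chr6:41546131-41546380 (FOXP4, plus), chr17:82519482-82519731 (FOXK2, plus), chr16:30091925-30092174 (TBX6, minus), chr2:222298999-222299248 (PAX3, minus), chrX:48786340-48786589 (GATA1, plus) and chr12:8032466-8032715 (FOXJ2, plus).
SOX12: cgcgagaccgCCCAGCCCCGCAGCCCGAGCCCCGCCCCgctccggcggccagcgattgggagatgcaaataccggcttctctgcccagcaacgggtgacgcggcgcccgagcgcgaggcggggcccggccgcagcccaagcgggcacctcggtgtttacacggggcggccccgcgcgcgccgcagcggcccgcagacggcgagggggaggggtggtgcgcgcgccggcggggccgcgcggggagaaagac
GATA6: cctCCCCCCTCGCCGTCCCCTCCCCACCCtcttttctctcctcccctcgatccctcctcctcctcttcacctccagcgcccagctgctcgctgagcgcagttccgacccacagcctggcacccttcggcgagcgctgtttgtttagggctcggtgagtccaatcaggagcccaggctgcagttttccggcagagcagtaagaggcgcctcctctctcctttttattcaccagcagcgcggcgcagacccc
FOXP4: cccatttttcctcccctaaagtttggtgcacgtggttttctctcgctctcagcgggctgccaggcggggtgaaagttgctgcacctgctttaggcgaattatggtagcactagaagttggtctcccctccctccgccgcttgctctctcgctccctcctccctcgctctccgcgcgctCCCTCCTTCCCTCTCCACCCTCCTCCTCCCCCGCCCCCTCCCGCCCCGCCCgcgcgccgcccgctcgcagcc
FOXK2: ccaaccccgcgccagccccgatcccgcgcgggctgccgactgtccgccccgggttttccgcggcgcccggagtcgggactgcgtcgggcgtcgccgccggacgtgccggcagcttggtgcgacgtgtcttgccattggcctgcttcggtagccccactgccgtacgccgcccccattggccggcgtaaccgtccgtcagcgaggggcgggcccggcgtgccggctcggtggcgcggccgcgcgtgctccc
TBX6: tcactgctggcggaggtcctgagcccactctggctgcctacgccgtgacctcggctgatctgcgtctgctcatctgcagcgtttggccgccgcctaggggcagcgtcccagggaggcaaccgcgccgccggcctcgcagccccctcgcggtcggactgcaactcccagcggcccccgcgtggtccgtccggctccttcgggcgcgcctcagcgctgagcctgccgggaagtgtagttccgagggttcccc
PAX3: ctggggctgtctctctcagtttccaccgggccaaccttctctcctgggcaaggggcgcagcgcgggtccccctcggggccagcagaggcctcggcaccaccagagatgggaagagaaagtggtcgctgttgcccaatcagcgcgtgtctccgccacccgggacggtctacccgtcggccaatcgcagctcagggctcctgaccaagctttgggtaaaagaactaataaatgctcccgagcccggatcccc
GATA1: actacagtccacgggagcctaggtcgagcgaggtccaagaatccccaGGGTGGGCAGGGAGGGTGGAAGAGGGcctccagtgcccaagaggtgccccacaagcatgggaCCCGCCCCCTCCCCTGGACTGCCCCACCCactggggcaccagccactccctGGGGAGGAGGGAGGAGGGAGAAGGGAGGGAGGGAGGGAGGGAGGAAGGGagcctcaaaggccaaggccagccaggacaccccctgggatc
FOXJ2: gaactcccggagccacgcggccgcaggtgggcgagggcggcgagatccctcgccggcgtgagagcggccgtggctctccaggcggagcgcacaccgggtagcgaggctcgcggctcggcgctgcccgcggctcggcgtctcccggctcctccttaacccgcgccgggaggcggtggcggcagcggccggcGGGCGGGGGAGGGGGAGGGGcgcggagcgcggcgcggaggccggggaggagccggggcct

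The SOX12 motif spans bases -240 to -213 from the start site, the GATA6 motif -247 to -222 and the FOXP4 motif -72 to -22. In all 3 promoters the guanine runs are on the strand opposite the gene. The printed bases of SOX12, FOXK2 and TBX6 lie wholly within a peak region shared by all 3 lists, as do 248 bases of GATA6, 238 of FOXP4 and 117 of PAX3. GATA1 carries 3 separate motifs in its 250 bases, at a GC content of 68.4%. FOXJ2 carries 1 motif, from -60 to -41, at a GC content of 81.2%. The motif was found in 28.8% of the 22199 promoters of protein-coding genes in the table and in 29.3% of 12854 taken once per gene with a window. The 8 promoters were picked to show each combination and give no rate for the members. A match describes the letters in this stretch and does not show that a structure formed, and a stretch without a match can hold looser motifs.

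A consensus peak lay in the windows of 14 of the 86 members, or 16.3% (95% Wilson interval 9.95 to 25.5%, counting error only), where 23.9% of all protein-coding genes had one. The share was 6 of 42 FOX genes (14.3%, 6.72 to 27.8%), 2 of 17 SOX genes (11.8%, 3.29 to 34.3%), 1 of 9 PAX genes (11.1%, 1.99 to 43.5%), 1 of 6 GATA genes (16.7%, 3.01 to 56.4%) and 4 of 12 TBX genes (33.3%, 13.8 to 60.9%). All 5 family intervals overlap each other and hold the background share. The TBX count was 2 of 12, or 16.7%, when an overlap of at least 50 bp was required or when only peaks wider than their list's median were used, the same share as GATA in both. The 14 were FOXN2, FOXK2, FOXC1, FOXP4, FOXO3, FOXK1, SOX12, SOX9, PAX3, GATA6, TBX6, TBX3, TBX18 and TBX2. Peaks in at least 2 lists were found for 18 members, or 20.9%, beside 34.2% of protein-coding genes. Peaks in any list were found for 24 members, or 27.9%, beside 41.3%. By list, BioRep1 had a peak at 14 member windows, BioRep2 at 21 and BioRep3 at 21, where the backgrounds were 25.4, 35.6 and 38.5%. The 14 windows of BioRep1 were the same 14 that had a peak in all 3 lists.

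**Figure D1:**
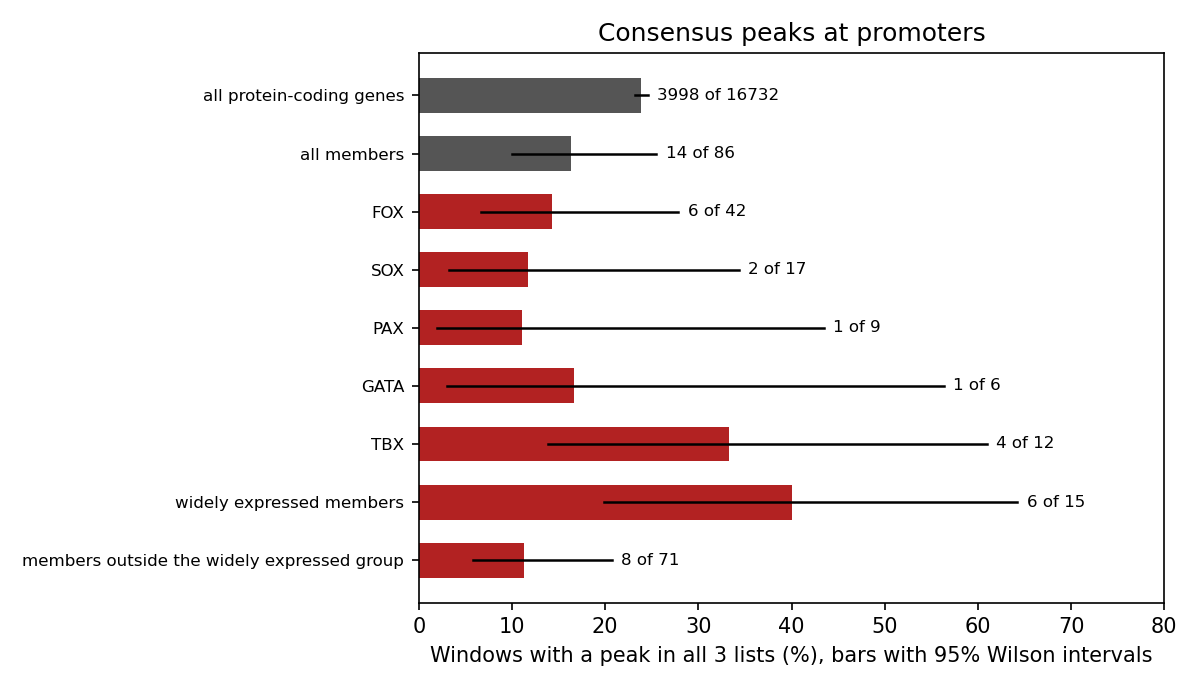
Share of TSS windows with a peak in all 3 lists, in percent on the horizontal axis, for protein-coding genes, all members, the 5 families, and members inside and outside a group of widely expressed factors; lines are 95% Wilson intervals and the counts stand beside them. TBX and the widely expressed members have the longest bars of the member groups, and every family interval is wide.

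Median read density was highest in TBX genes and lowest in PAX and GATA genes. The median CPM over all 86 members was 16.4 ± 0.02 (SD, n = 3 biological replicates), beside 23.4 ± 0.67 over all protein-coding windows. TBX genes had the highest family median, 27.7 ± 0.92 CPM, with 28.7, 27.2 and 27.1 in BioRep1, BioRep2 and BioRep3. FOX genes followed at 19.3 ± 0.22 CPM, with replicate medians of 19.6, 19.2 and 19.2. SOX genes had 15.4 ± 0.66 CPM, at 15.4, 16.0 and 14.7 in turn. GATA genes had 11.9 ± 1.99 CPM, at 9.65, 13.4 and 12.7, and PAX genes 10.2 ± 0.32 CPM, at 10.3, 10.5 and 9.88. The replicate values of TBX, FOX and SOX do not overlap each other or those of PAX and GATA. PAX and GATA overlap. Peaks and CPM come from the same reads, so they are not independent of each other.

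The 10 pairs of families were compared as the log2 ratio of their median CPM within each biological replicate. TBX exceeded PAX by a log2 ratio of 1.44 ± 0.05 (SD, n = 3), the mirror of a PAX over TBX value of -1.44. The FOX over TBX log2 ratio was -0.52 ± 0.03, and the SOX over TBX ratio was -0.85 ± 0.07. FOX exceeded SOX by 0.33 ± 0.06 and PAX by 0.92 ± 0.04. The FOX over SOX value was 0.01 when windows had to lie within 200 bp of the 5′ end, which left 14 SOX genes, and 0.55 without overlapping windows. SOX over GATA (0.38 ± 0.25) was 0.69 and 0.19 in these settings, and SOX over TBX was -0.54 in the first. The sign was the same in 3 of 3 replicates for 9 pairs and in 2 of 3 for PAX against GATA (-0.21 ± 0.26). With 3 replicates the two-sided exact sign-flip test cannot go below p = 0.25, which the 9 pairs reached (adjusted p = 0.278 over 10 pairs, exact test), and PAX against GATA had p = 0.5 by the exact test. No pair could therefore pass a threshold of 0.05, and the spread over replicates does not cover the spread among the genes of a family.

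**Figure D2:**
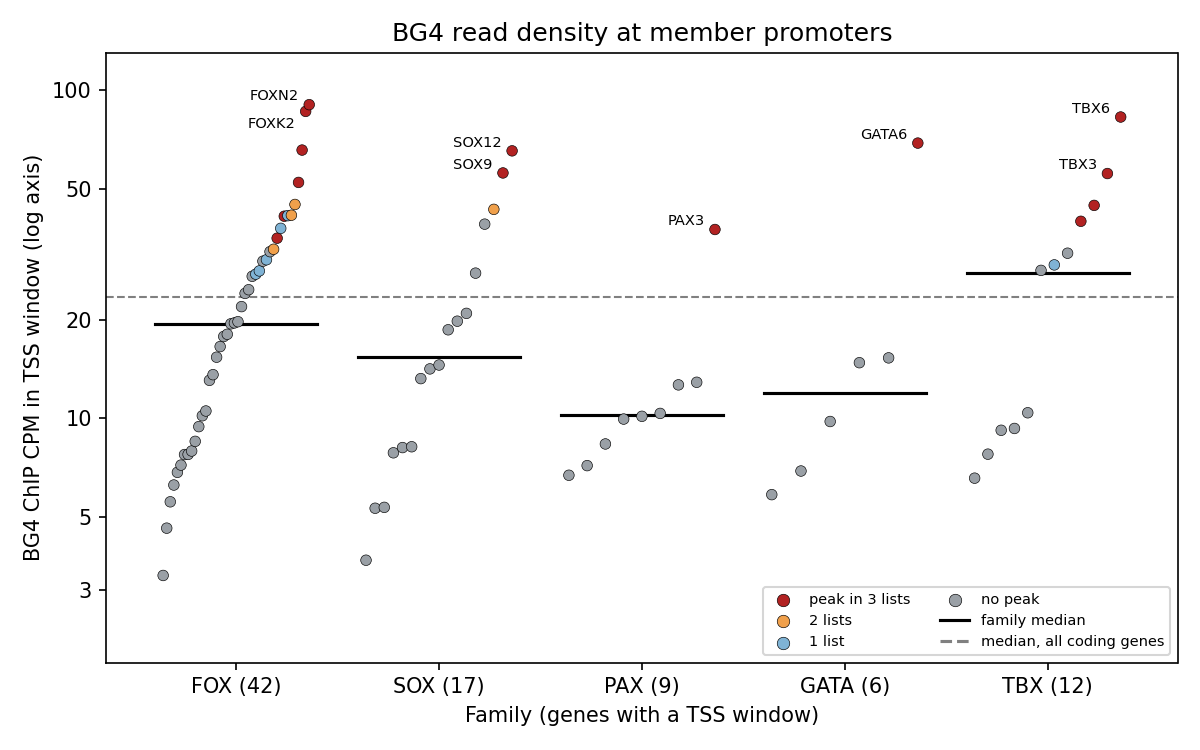
Mean CPM of each member's TSS window (log axis) by family, with the number of genes in brackets; colour gives the number of peak lists with a peak in the window, solid bars the family medians (means of 3 replicate medians) and the dashed line the median of all protein-coding genes. Each family spans from under 10 CPM to well above the dashed line, and red points, peaks in all 3 lists, lie at 35.4 CPM or more.

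Within every family the members covered a wide range, as the plot of window CPM by family shows. Of 86 members, 33 were above the median of protein-coding genes: 19 FOX, 5 SOX, 1 PAX, 1 GATA and 7 TBX genes. The 14 windows with a consensus peak held 35.4 to 90.5 CPM, the 4 with peaks in 2 lists 32.8 to 44.9, the 6 with a peak in 1 list 27.5 to 41.5 and the 62 with no peak 3.32 to 39.1. These ranges overlap, so a level near 40 CPM occurred with and without a peak. For 13 of the 14, every one of the 9 libraries was above the median of protein-coding genes. FOXK1 was the exception. The surroundings of each member were taken as the windows within 1 Mb that had no peak and no protein-coding gene. The 14 held 3.87 to 12.2 times the median of their surroundings (median 6.34), and the 62 members without a peak 0.52 to 5.46 times (median 1.29). The surroundings were chosen for having no peak, and the members were split by peaks from the same reads. This contrast therefore follows in part from these choices.

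**Figure D3:**
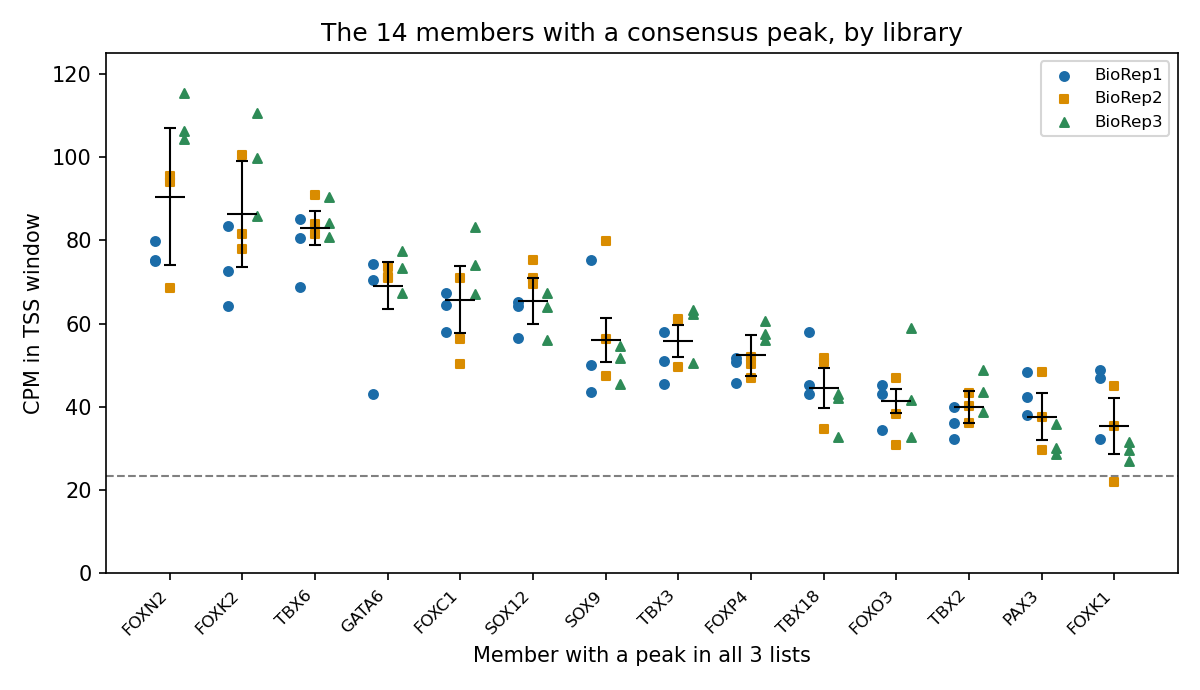
CPM in the TSS window of the 14 members with a consensus peak, in each of the 9 libraries (3 per biological replicate, by colour and shape); the bar is the mean and the whiskers the SD over 3 biological replicates, and the dashed line is the median of protein-coding genes. FOXN2 and FOXK2 are highest in BioRep3, PAX3 and FOXK1 are highest in BioRep1, and only FOXK1 has a library under the dashed line.

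FOX genes held the highest windows of all members. FOXN2, a forkhead factor present in many tissues (ENSG00000170802.15, window chr2:48314438-48314837), had 76.7, 86.0 and 109 CPM in BioRep1, BioRep2 and BioRep3, between 68.5 and 115 over 9 libraries with a median of 94.0. BioRep3 was above the other two, and its 3 libraries lay above all 6 of theirs. The window is centred 978 bp downstream of the RefSeq 5′ end, so it lies within the gene and not over the listed start. FOXK2, which with FOXK1 acts on glucose metabolism and autophagy genes (ENSG00000141568.20, chr17:82519514-82519913), had 73.4, 86.7 and 98.7 CPM, from 64.2 to 111 with a median of 83.4. Its libraries overlapped between replicates. FOXK1 (ENSG00000164916.10, chr7:4682110-4682509) had 42.7, 34.2 and 29.4 CPM, from 21.9 to 48.9 with a median of 32.3, the lowest of the 14. Both genes of the FOXK class thus had a consensus peak, at levels that did not overlap.

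FOXC1, needed for the front of the eye, the skeleton and the kidney (ENSG00000054598.7, chr6:1609773-1610172), had 63.3, 59.2 and 74.8 CPM, from 50.3 to 83.3 with a median of 67.0. FOXC2, its close relative in vessel and lymphatic development, had 29.7, 12.7 and 23.4 CPM and no peak. Every FOXC1 library was above every FOXC2 library, whose highest was 40.3 CPM. FOXP4, a factor of lung and nervous system development (ENSG00000137166.14, chr6:41546227-41546626), had 49.4, 49.8 and 58.1 CPM, from 45.7 to 60.7 with a median of 51.7. FOXP2, the factor linked to speech, had 32.0, 29.4 and 35.2 CPM and no peak, and FOXP1 19.4 CPM and no consensus region at any of its 6 listed promoters. FOXP3, the factor of regulatory T cells, had 7.76 CPM. The FOXP class therefore ran from 7.76 to 52.4 CPM with 1 peak among 4 windows.

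FOXO factors act downstream of insulin and AKT. FOXO3 (ENSG00000118689.14, chr6:108559636-108560035) had 40.9, 38.6 and 44.4 CPM, from 30.7 to 59.0 with a median of 41.6, and a consensus peak. FOXO1 had 44.5, 38.0 and 41.9 CPM, a level within the spread of FOXO3, and a peak in BioRep3 only. FOXO4 had 24.0 ± 8.0 CPM and FOXO6 17.8 ± 0.61 CPM, neither with a peak in the window. With FOXO1, 8 FOX genes had a peak in 1 or 2 lists. FOXJ1, the regulator of motile cilia (44.9 ± 7.99 CPM), FOXF2 of the gut and palate mesenchyme (41.6 ± 5.34) and FOXM1 of mitosis (32.8 ± 5.97) had one in BioRep2 and BioRep3. FOXD1, a factor of the renal stroma (38.0 ± 1.97 CPM), and FOXN3 (30.4 ± 1.44) had one in BioRep2, and FOXB1 (28.1 ± 5.86) and FOXF1 (27.5 ± 3.73) in BioRep3. The FOXM1 window overlaps 1 other window and can share reads with it. The RHNO1 window is centred within 1 kb, and whether it is the overlapping one was not checked. FOXJ2 had 35.6, 28.1 and 26.7 CPM, with FOXP2 the highest of the 28 FOX windows without a peak. At the other end, FOXD4 had 18 reads in 9 libraries, or 3.32 ± 1.18 CPM, a level at which no difference between replicates could be read. Its near-identical copies (FOXD4L genes), left out by the rule, had 0 to 0.46 CPM. How reads that fit several copies were counted is not stated, so these values are uncertain. FOXO3B, also left out, had 42.8 ± 11.5 CPM and shares sequence with FOXO3.

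Among SOX windows the consensus peaks were in the C and E subgroups. SOX6 of subgroup D has no window, and a consensus region spans its 5′ end. SOX12 of subgroup C (ENSG00000177732.8, chr20:325396-325795) had 62.0, 71.8 and 62.4 CPM, from 56.0 to 75.2 with a median of 65.2. Its relatives SOX4, with 14.2 ± 4.14 CPM, and SOX11, with 5.35 CPM, had no peak, and the SOX4 window is centred at -983 bp from the RefSeq 5′ end. SOX9, the regulator of cartilage and of testis formation (ENSG00000125398.6, chr17:72120821-72121220), had 56.3, 61.2 and 50.6 CPM, from 43.5 to 79.8 with a median of 51.7. SOX8 of the same subgroup E had 20.9 CPM and no peak. SOX13 of subgroup D had 42.0, 45.1 and 43.0 CPM, with peaks in BioRep2 and BioRep3. The highest SOX windows without a peak were those of SOX21, at 39.1 ± 1.86 CPM in a window that overlaps another, and SOX2, the pluripotency and neural factor, at 27.7 ± 2.59 CPM. SOX2 stood apart from the other subgroup B1 genes, SOX3 at 7.85 and SOX1 at 5.32 CPM. SOX17, a factor of the endoderm and vessels, had the lowest SOX level, 20 reads in all or 3.69 ± 0.44 CPM.

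PAX genes had the lowest mean of replicate medians, although GATA genes were lower in BioRep1, and they had 1 peak. PAX3, which acts in the neural crest and in muscle precursors (ENSG00000135903.19, chr2:222298797-222299196), had 42.9, 38.5 and 31.5 CPM, from 28.6 to 48.5 with a median of 37.6. PAX7, its paralog in muscle stem cells, had 17.1, 11.7 and 9.88 CPM and no peak. Every PAX3 library exceeded every PAX7 library, whose highest was 19.9 CPM. The PAX3 overlap was short in BioRep1 and BioRep3, at 37 and 24 bp of the window, against 117 bp in BioRep2. With an overlap of at least 50 bp required, PAX3 had no consensus peak and the family count was 0. PAX1, a factor of the vertebral column, had 12.6 ± 2.73 CPM. PAX2 and PAX8, which specify the nephric lineage, had 10.4 ± 1.68 and 10.1 ± 1.48 CPM and no peak in this line of embryonic kidney origin. PAX6, the eye and brain factor, had 9.95 ± 4.44 CPM and no consensus region at any of its 9 listed promoters. PAX5, the B-cell factor, had 37 reads or 6.71 ± 1.88 CPM.

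GATA6, a factor of the endoderm and heart (ENSG00000141448.8, chr18:22169244-22169643), was the only GATA gene with a peak of any list in its window. It had 62.6, 71.9 and 72.7 CPM, from 43.0 to 77.5 with a median of 71.1. GATA5 came next with 15.5, 13.3 and 17.1 CPM, and its highest library, 25.4 CPM, was below the lowest of GATA6. GATA3, of T cells and the nephric duct, had 14.8 ± 2.18 CPM, with 1 consensus region inside the gene and none in the window. GATA2 of blood stem cells had 9.78 ± 3.33 CPM, GATA1 of red blood cells 6.91 ± 1.29 CPM and GATA4 of the heart 5.85 ± 1.94 CPM from 35 reads. GATA1, whose printed promoter carries 3 motifs, thus lay near the bottom of the family. The ratio of observed to expected CpG was 0.14 at GATA1, 0.73 at GATA2, 0.48 at GATA3 and 0.70 at GATA6. GATA2 had the highest of these ratios and no peak, and a link to the signal was not tested. A start site on the opposite strand lies within 1 kb of the GATA6 window centre, but no other window overlaps that of GATA6.

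TBX6, the factor of the paraxial mesoderm (ENSG00000149922.10, chr16:30091688-30092087), had the highest T-box level, 78.2, 85.4 and 85.2 CPM, from 68.9 to 90.9 with a median of 83.9. TBX3, of the limb, breast and heart (ENSG00000135111.15, chr12:114683965-114684364), had 51.5, 57.1 and 58.7 CPM, from 45.4 to 63.2 with a median of 58.0. TBX2, its closest relative (ENSG00000121068.13, chr17:61399697-61400096), had 36, 39.9 and 43.8 CPM, from 32.3 to 48.9 with a median of 39.9. The TBX2 window overlaps another window, and the BioRep1 peak covers 2 bp of it. TBX4 and TBX5, the hindlimb and forelimb members of the same subfamily, had 9.20 and 6.57 CPM and no peak. TBX2 and TBX3 thus lay above TBX4 and TBX5, and the highest TBX5 library, 11 CPM, was below the lowest TBX2 library.

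TBX18, a factor of the ureter and the sinus node (ENSG00000112837.16, chr6:84764320-84764719), had 48.7, 45.7 and 39.3 CPM, from 32.7 to 57.9 with a median of 43.1. Peaks of BioRep1, BioRep2 and BioRep3 cover at most 20, 3 and 27 bp of the window. The consensus region, chr6:84764717-84764809, lies mostly upstream of the window and reaches only its edge. The overlaps of 20 and 27 bp cannot both belong to that region, so the 3 lists need not share 1 peak in this window. TBX20, a heart factor, had 31.9 ± 1.66 CPM and TBX1, of the pharyngeal arches, 28.3 ± 7.46 CPM, the highest TBX windows without a peak. TBX21, the T-helper factor known as T-bet, had 29.4 ± 2.0 CPM and a peak in BioRep2 only. No TBX window lay between 10.4 CPM (TBX19) and 28.3 CPM (TBX1).

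Around the start sites, a consensus region lay within 5 kb of the RefSeq 5′ end of 21 of 89 members, or 23.6% (Wilson interval 16.0 to 33.4%), where 30% of protein-coding genes had one. FOX genes accounted for 12 of 43, SOX for 3 of 18, PAX for 1 of 9, GATA for 1 of 6 and TBX for 4 of 13. The 3 members not assessed had no strand in the tables used here. The 21 genes had 26 regions with a median length of 320.5 bp. SOX12 had 3 regions, centred at -976, -65 and 1725 bp from the 5′ end, where negative values are upstream. FOXO3, FOXP3 and TBX6 had 2 each.

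**Figure D4:**
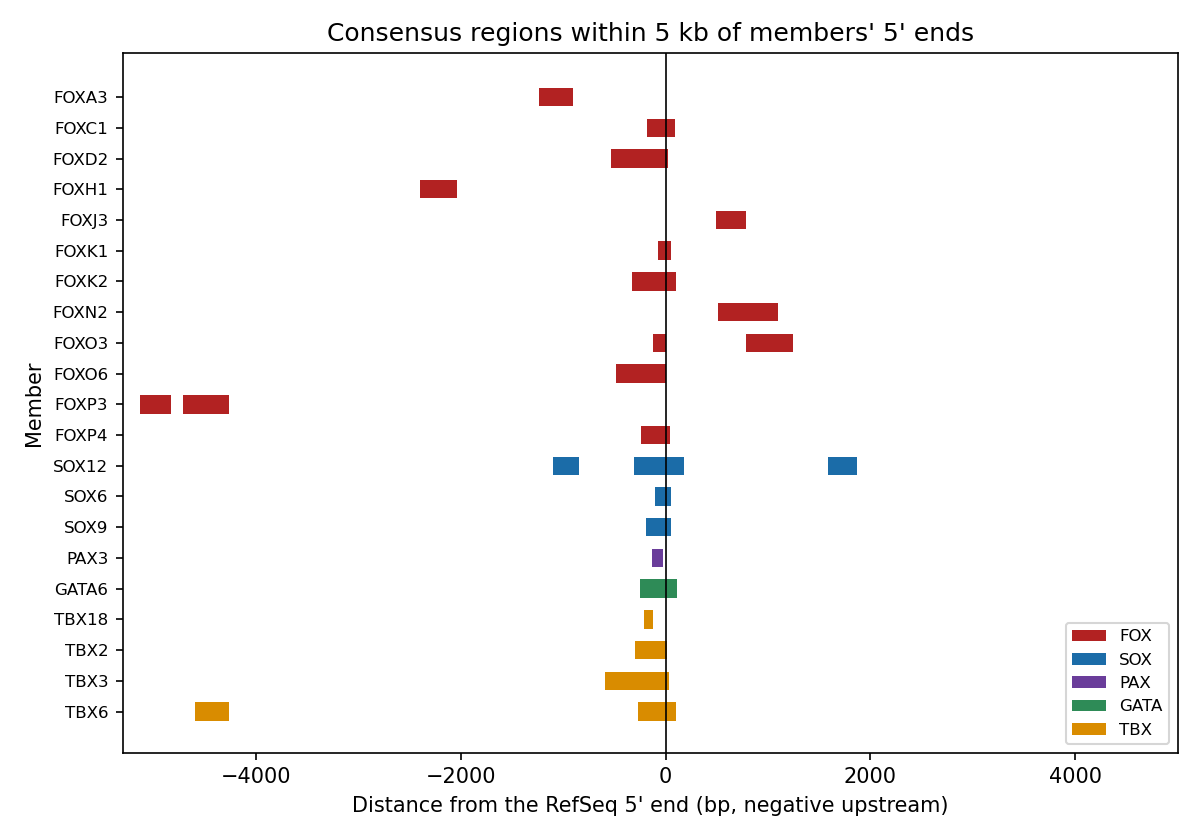
Extent of the 26 consensus regions within 5 kb of a member's RefSeq 5′ end; the horizontal axis is the distance in bp (negative is upstream), and rows are members coloured by family. Most regions straddle or precede the 5′ end, while those of FOXP3, FOXH1, FOXA3 and 1 of TBX6 lie farther upstream, nearer to another gene.

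The midpoint was upstream of the 5′ end in 22 of the 26 regions, including 5 that were nearer another protein-coding gene. No such count was made over all protein-coding genes, so it is not a trait of the members. Of the 14 regions in a window, 13 had an upstream midpoint, and the median of the 14 midpoints was -73 bp. FOXN2 was the exception, with a region from 509 to 1094 bp downstream. FOXD2 and SOX6, which have no window, had regions centred at -253 and -24 bp, and the SOX6 region was also 146 bp from the 5′ end of C11orf58. FOXO6 and FOXJ3 had regions centred at -240 and 640 bp, both outside the 400 bp window. For 5 of the 26 regions another protein-coding gene was nearer: SYMPK at 110 bp for FOXA3, PPP1R16A at 88 bp for FOXH1, PPP1R3F at 594 and 101 bp for FOXP3, and YPEL3 at 140 bp for the far region of TBX6. These 5 regions count as near a member by distance alone.

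A group of 15 FOX and SOX genes known to be active in many tissues was set beside the other members. In this group (FOXJ2, FOXJ3, FOXK1, FOXK2, FOXM1, FOXN2, FOXN3, FOXO1, FOXO3, FOXO4, FOXP1, FOXP4, SOX4, SOX12 and SOX13), 6 windows had a consensus peak, or 40.0% (Wilson interval 19.8 to 64.3%). Among the other 71 members 8 had one, or 11.3% (5.82 to 20.7%), beside 23.9% of protein-coding genes. The group median was 37.7 ± 3.31 CPM, at 40.9, 34.3 and 37.8 in the 3 replicates, and that of the other members 13.2 ± 0.75, at 12.3, 13.3 and 13.8. The replicate medians do not overlap, and the difference was not tested over genes. The groups were chosen with earlier results of these data known, and the widely active group holds 6 of the 14 peaks. The shares and intervals therefore do not test a difference from 23.9%. A group of 13 factors of kidney development had 3 peaks (FOXC1, SOX9 and TBX18), or 23.1% (8.18 to 50.3%), close to the 23.9% of protein-coding genes, and a median of 16.3 ± 2.04 CPM, beside 16.4 for all members.

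Genes that work with these families were read in 5 further lists, against the same background of 23.9%. No T-box gene without a number had a peak (0 of 4 windows), with MGA the highest at 19.0 ± 3.65 CPM. HMG-box relatives of SOX had a consensus peak in 4 of 14 windows, led by CIC at 72.2 ± 1.18 and TCF7L2, an effector of Wnt signalling, at 70.5 ± 6.05 CPM, while BBX had 38.0 ± 10.9 CPM and none. Partners and zinc-finger relatives of GATA factors had one in 2 of 10, GATAD2A at 108 ± 9.66 and GATAD2B at 46.6 ± 4.47 CPM, both subunits of the NuRD complex, and LDB1 had peaks in 2 lists at 51.4 ± 4.64 CPM. The PAX network, with the EYA and DACH cofactors and their homeobox partners, had one in 4 of 11, led by EYA3 at 108 ± 13.7 and DACH1 at 73.8 ± 2.70 CPM. PAXIP1 had 50.2 ± 9.84 CPM and no peak. The FOXO pathway had one in 4 of 12, led by the kinase AKT2 at 88.2 ± 4.70 and SKP2, a ubiquitin ligase subunit, at 75.0 ± 7.09 CPM. The PAX3 level was below those of EYA3 and DACH1, and the median of that network, 43.7 ± 1.95 CPM, was above the PAX median.

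No member differed between biological replicates past the threshold. In edgeR's quasi-likelihood test over all 17499 windows that passed the filter on low counts, 0 windows had a Benjamini-Hochberg adjusted p under 0.05 (0% called), and 1379 (7.88%) had an unadjusted p under 0.05. Of the 86 members, 50 passed the filter, 0 were called and 6 had an unadjusted p under 0.05. DESeq2 called 0 windows, with 334 windows and 2 members under 0.05 unadjusted. FOXC2 and FOXQ1 had the smallest adjusted p, 0.446 each in edgeR's quasi-likelihood test. FOXC2 had 29.7, 12.7 and 23.4 CPM, a BioRep2 over BioRep1 log2 fold change of -1.12 ± 0.34 (SE), and FOXQ1 had 32.9, 24.6 and 16.6 CPM, a BioRep3 over BioRep1 log2 fold change of -1.05 ± 0.31. FOXN2 (adjusted p = 0.498), TBX1 (0.525) and FOXO4 (0.563) came next in edgeR's test. The p-values measure the spread between technical libraries only. On simulated counts for 16400 windows the same test recovered 80.3% of the changes set at 3-fold, 59.7% of those set at 2-fold and 22.4% of those set at 1.5-fold.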

How the data were processed

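The deposited values are raw read counts per 400 bp window, 200 bp to each side of a TSS of GENCODE release 28, 1 file per library, per the file headers and names, and peak lists with chromosome, start and end, 1 per biological replicate. The peak coordinates are another kind of deposited value, with no score. The build is hg38 and the tools listed are MACS2, BWA, bedtools, Picard and cutadapt, per the submitters' processing notes. Not given in the sources used here are versions, roles, thresholds and the handling of duplicate reads in counting, where removal would cap the densest windows.

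Counts were scaled to CPM of the reads in windows, which is not full depth. Technical libraries of a replicate differed by less than sampling noise in summed chi-square terms (0.921 to 0.990 per degree of freedom), so they were averaged and n is 3. Between biological replicates the value was 1.05 to 1.24. That range rests on 53980 to 54319 windows and the technical one on 27111 to 41016, so the ranges are not strictly comparable. The labels do not say how the biological replicates were separated. Groups and numbers come from the sample titles. Same-numbered technical libraries did not deviate together (correlations from -0.015 to 0.026), so numbers do not pair them.

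The members, groups and lists were chosen with earlier results of these data known. A gene took the same-strand window nearest its RefSeq 5′ end within 1 kb. A consensus peak in a window means an overlap of 1 bp or more by a peak of each list. Peaks shared by all 3 lists were merged into 6081 consensus regions. Windows were tested with edgeR 4.0.16 (glmQLFit, glmQLFTest, 2 degrees of freedom over the 3 replicates, TMM, filterByExpr, robust, Benjamini-Hochberg over all windows tested, threshold 0.05), and with DESeq2 1.42.0 as an alternative, in R 4.3.3. The edgeR script was tested on simulated data first and made 2 false calls. Other steps used Python 3.11.15 (matplotlib 3.10.9, scipy 1.17.1, pandas 2.3.3, numpy 2.4.6).

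Promoter entries exist in the RefSeq table for 61 of the 86 members (70.9%, under the 80% needed), so a check of GC content or motifs over the members is void and only single promoters are described. Named genes were, per family, the members with a consensus peak (up to 6), the 2 highest without a peak and the lowest; then those with the most regions within 5 kb, the 5 smallest adjusted p, and up to 2 with and 1 without a consensus peak per related list. Some genes that this rule covers are not reported here and still count in their lists. Other members were named for their class or after their values were seen. Intervals are 95% Wilson. Alternatives were other overlap and list rules, distances, scalings, filters, a block, and leaving out libraries, replicates or lists.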

Additional observations from a re-analysis of the deposited data

How the results depend on the processing

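Shares were compared with their Wilson interval, medians with the SD over replicates, and ratios of medians by their sign alone. Counts of windows called were taken to stay only where they were 0, as in the main setting. By these criteria 336 values stayed and 36 moved, and 196 values of single members stayed. The size of some ratios changed more, as given with them. With a peak in any list counted, the share was 27.9% for all members and 33.3% for FOX (41.3% of protein-coding genes). An overlap of 50 bp or more left PAX at 0% (protein-coding genes 21.6%). Peaks wider than their list's median left all members at 8.14%, FOX at 7.14%, SOX at 5.88% and PAX at 0% (protein-coding genes 14%). Both settings left TBX at 16.7%, from 33.3%. Within 5 kb, regions of at least 2 lists gave 33.7% of all members (background 41.4%). Leaving out single lists gave 23.6 to 33.7%, the highest without BioRep1 (background 40.1%).

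Without mitochondrial windows the medians were 16.9 CPM for all members and 19.9 for FOX. With windows within 200 bp they were 15.7 for all members and 19.1 for SOX, which then lay at the FOX level. Without overlapping windows they were 16.0 for all members, 19.7 for FOX and 13.6 for SOX. Leaving out single libraries or replicates gave 15.9 to 16.7 for all members, 19.2 to 19.9 for FOX, 14.4 to 16.3 for SOX and 9.54 to 10.7 for PAX.

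Without the filter on low counts edgeR called 25 windows and 0 members, and leaving out single libraries called 0 to 1 windows and 0 members. With the technical number as a replicate block it called 0 windows, with 5 members at an unadjusted p under 0.05 and a smallest adjusted p of 0.395 for a member in edgeR's test. The block changed no call. Over all settings the smallest adjusted p of a member ranged from 0.317 to 0.998 (edgeR and DESeq2). At this depth 7 members had under 36 reads over 9 libraries, where a difference was not detectable. The causes of these changes were not tested.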
